A study of Mus musculus with 16 samples.

Results

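The genotype by MG132 interaction is the difference, gene by gene, between the response of CHOP-/- mouse embryonic fibroblasts (MEF) to the proteasome inhibitor MG132 and the response of wild-type (WT) MEF to the same treatment. It was taken over all 16 arrays of the series as (CHOP-/- MG132 minus CHOP-/- untreated) minus (WT MG132 minus WT untreated) on log2 signals, and it is positive where CHOP-/- cells responded with the higher value and negative where they responded with the lower. Of 18193 genes with a probe set naming them alone, 11457 passed a filter on low signals and were tested, each by its probe set with the highest mean. Signals are array intensities on the authors' linear scale, and all differences are on the scale of log2(signal + 16). This scale compresses changes at low signals, so a difference of responses can come out smaller or larger. The 4 groups were WT cells (genotype CHOP+/+) and CHOP-/- cells, each untreated or exposed to 1 µM MG132 for 8 h, with 4 arrays per group and a culture plate of its own for each array. Both genotypes were grown in DMEM with fetal bovine serum, and untreated plates were harvested together with the treated ones. The labels of the untreated plates differ: the treatment field gives none, while the descriptions name DMSO, so whether the contrast includes the solvent is not settled by them. The labels name no embryo, cell isolation, passage or clone, so the p-values reflect spread among plates, which may be technical, and an effect of genotype cannot be told apart from any other difference between the cultures of the 2 genotypes.

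Ddit3 encodes CHOP, a C/EBP family transcription factor made when the integrated stress response (ISR) raises ATF4. It lacks some of the DNA contacts of other C/EBP proteins and binds DNA as a partner of C/EBP or ATF proteins, also at composite sites joining a C/EBP and an ATF element. It is best known for its part in cell death under prolonged stress of the endoplasmic reticulum (ER). MG132 blocks the 26S proteasome, so that damaged and short-lived proteins pile up and heat shock, oxidative stress and ISR genes are induced. The interaction asks which parts of that induction differ between cells with and without CHOP.

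Among genes named by the rules given under processing, the promoters of 9 with a called difference held the composite C/EBP-ATF motif TTGCATCA. The 6 of these with the largest differences are shown because ATF4, CHOP and their C/EBP partners are known to act through this kind of element. Genes chosen after their values were seen were left out here, among them Fgf21, which had the motif in the longer windows counted below. Each is the stretch of 250 bases that ends at the annotated gene start, on the gene's own strand, 5′ to 3′, from RefSeq (GRCm38.p6). Capitals mark TTGCATCA or its reverse complement TGATGCAA. The windows are chr19:27216770-27217019 (+) for Vldlr, chr3:50443614-50443863 (-) for Slc7a11, chr2:119350992-119351241 (+) for Chac1, chr1:191183334-191183583 (-) for Atf3, chr8:94386179-94386428 (+) for Herpud1 and chr12:85599166-85599415 (+) for Jdp2.
Vldlr: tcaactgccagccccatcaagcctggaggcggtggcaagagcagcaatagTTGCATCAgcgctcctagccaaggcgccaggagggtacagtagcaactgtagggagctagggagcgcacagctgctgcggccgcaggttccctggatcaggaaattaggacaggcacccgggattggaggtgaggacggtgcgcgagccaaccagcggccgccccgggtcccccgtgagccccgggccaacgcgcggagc
Slc7a11: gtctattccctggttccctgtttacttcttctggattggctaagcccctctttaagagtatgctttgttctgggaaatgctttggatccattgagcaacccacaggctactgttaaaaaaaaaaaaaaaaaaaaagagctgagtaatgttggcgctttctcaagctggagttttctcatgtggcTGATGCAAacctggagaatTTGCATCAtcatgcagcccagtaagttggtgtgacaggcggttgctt
Chac1: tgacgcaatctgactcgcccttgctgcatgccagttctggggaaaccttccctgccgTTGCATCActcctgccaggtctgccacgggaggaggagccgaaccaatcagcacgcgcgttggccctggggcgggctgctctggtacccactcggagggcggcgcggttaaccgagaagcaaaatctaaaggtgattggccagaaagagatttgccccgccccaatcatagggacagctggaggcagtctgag
Atf3: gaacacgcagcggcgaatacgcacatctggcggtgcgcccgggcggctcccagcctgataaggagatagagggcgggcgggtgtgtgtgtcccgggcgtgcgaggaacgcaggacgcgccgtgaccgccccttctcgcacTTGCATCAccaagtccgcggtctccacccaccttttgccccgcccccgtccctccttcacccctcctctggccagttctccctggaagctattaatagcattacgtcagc
Herpud1: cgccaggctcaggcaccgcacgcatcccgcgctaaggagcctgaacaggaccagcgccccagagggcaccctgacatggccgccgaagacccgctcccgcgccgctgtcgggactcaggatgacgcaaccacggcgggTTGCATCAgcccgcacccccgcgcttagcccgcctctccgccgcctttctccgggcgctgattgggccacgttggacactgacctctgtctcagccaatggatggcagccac
Jdp2: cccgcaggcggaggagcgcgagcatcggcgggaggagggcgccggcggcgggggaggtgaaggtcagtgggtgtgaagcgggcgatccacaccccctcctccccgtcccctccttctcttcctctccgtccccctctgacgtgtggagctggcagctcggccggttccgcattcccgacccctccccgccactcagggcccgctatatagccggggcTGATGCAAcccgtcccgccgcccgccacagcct
These genes differed in opposite directions. Vldlr, the very low density lipoprotein receptor, had a log2 difference of responses of 1.87, Herpud1, a component of ER-associated degradation (ERAD), of 0.68 and Jdp2, a partner of AP-1 proteins, of 0.63. Slc7a11, the cystine transporter, had one of -1.13, Chac1, which degrades glutathione, of -0.91 and the stress-induced factor Atf3 of -0.76. In windows of the same start that also hold the 50 bases after it, the motif stood on either strand in 294 of 32851 entries of the promoter table (0.895%) and in 67 of 9285 tested genes with an entry (0.722%). It stood in 3 of 97 genes with a higher response by at least 2-fold (3.09%) and in 4 of 189 with a lower one (2.12%). The shorter C/EBP motif TGCAAT, which can overlap the composite by its outer bases, was found on either strand in 8.4% of all windows and in 6.45% of tested genes with an entry, and in 8.25% of the higher and 13.2% of the lower genes. A match is a description of these letters and not evidence of binding.

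Arrays of a group correlated at 0.985 to 0.992 across tested genes, and median signals lay between 90.1 and 113 on the authors' scale. Replicate 1 of untreated WT cells received the lowest weight, 0.409, when limma weighted arrays by their spread, against 0.712 to 1.39 for the others. Of 10 fibroblast markers, Vim lay between 40460 and 54050 on all arrays, whereas Thy1 ranged from 206 to 2912 and Pdgfra from 75.2 to 2674. The cultures also differed in sex-linked transcripts. Xist, the X-inactivation RNA, gave 297 ± 37.8 in untreated WT and 10340 ± 1020 in untreated CHOP-/- cells (mean ± SD, n = 4), and the Y-linked gene Eif2s3y averaged 4714 and 11.1. The part of such differences between the cultures in the interaction was not tested.

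Ddit3 checks the labels. Its brighter probe set gave 887, 1054, 998 and 1127 in untreated WT cells and 8181, 6891, 8087 and 7739 with MG132. In CHOP-/- cells it gave 382, 352, 393 and 343 untreated and 430, 394, 418 and 342 treated. The 4 treated WT arrays stood above all others, and both CHOP-/- groups overlapped each other and lay below untreated WT cells. Ddit3 rose by 2.91 (SE 0.087) on the log2 scale in WT cells, its change in CHOP-/- cells was 0.10 (SE 0.087, limma Benjamini-Hochberg (BH) adjusted p = 0.328), and the difference of responses was -2.81 (SE 0.12, adjusted p = 1.32e-11). The dimmer Ddit3 probe set averaged 258 and 286 in WT and 256 and 290 in CHOP-/- cells, a difference of 0.011, so that the mean of both gave -1.40. Where the probe sets lie relative to the deletion was not analysed here.

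Across the 11457 genes, limma called a difference of responses for 3235 (28.2%) at a BH adjusted p under 0.05. The response was higher in CHOP-/- cells for 1620 genes (14.1%) and lower for 1615 (14.1%). With each array centred on its median, the calls split into 1252 higher and 2015 lower, so 38.3% of calls were higher instead of 50.1%. A difference of at least 2-fold was seen for 119 higher genes (1.04%) and 260 lower genes (2.27%). Over all tested genes the median difference was -0.0015, and the middle of the distribution lay between -0.23 and 0.23 (quartiles).

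**Figure D1:**
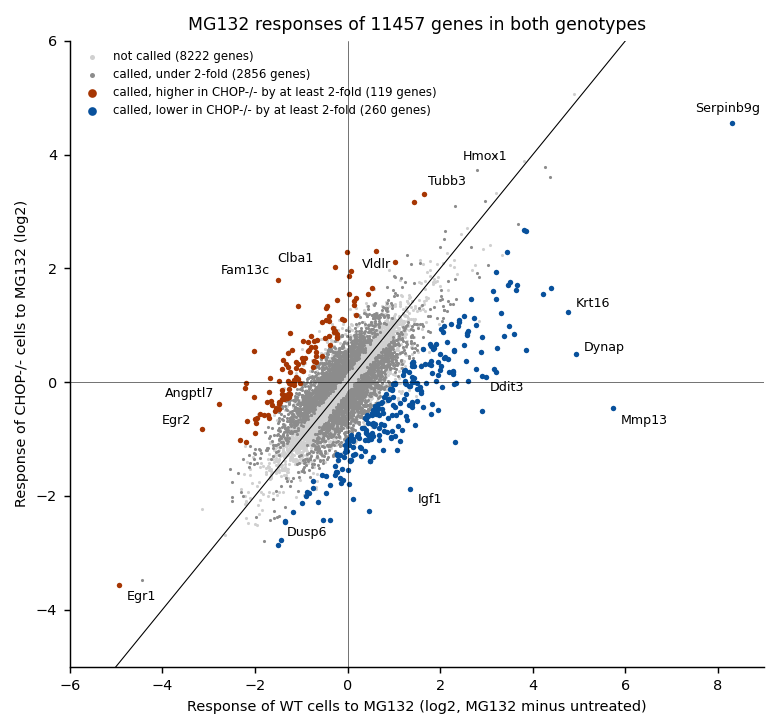
Each point is a gene, with the log2 response of WT cells to MG132 on the horizontal axis and that of CHOP-/- cells on the vertical axis (4 arrays per group), and the line marks equal responses. The 260 genes with a lower response by at least 2-fold (blue) lie below the line, with Mmp13 and Serpinb9g far to the right, and the 119 with a higher one (brown) lie above it.

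The genes behind these counts moved in different ways. MG132 itself raised 27.1% and lowered 36.8% of the tested genes in WT cells, and raised 25.7% and lowered 36.7% in CHOP-/- cells. Among the 260 lower genes, 181 rose in WT cells: 86 of these were not called in CHOP-/- cells, 48 rose there too and 47 fell. A further 61 fell in CHOP-/- cells without a call in WT cells, and 16 fell in both. Among the 119 higher genes, 95 fell in WT cells: 45 were not called in CHOP-/- cells, 27 rose there and 23 fell there too. Another 16 rose in CHOP-/- cells without a call in WT cells, and 6 rose in both. In 84 of the 119 the highest group mean was that of untreated WT cells, and in 31 both CHOP-/- means were under a signal of 100. In 127 of the 260 the highest mean was that of treated WT cells, and in 99 that of untreated CHOP-/- cells. Centring each array on its median moved the median response of all genes from -0.067 to 0.136 in WT cells and from -0.073 to 0.071 in CHOP-/- cells, so these splits by rise and fall depend on the scaling.

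The lower end was led by Mmp13. Mmp13, the collagenase that cleaves fibrillar collagen, gave 16.9, 40.1, 9.23 and 19.2 in untreated and 1655, 1878, 2228 and 1841 in treated WT cells. In CHOP-/- cells it gave 20.6, 4.00, 20.2 and 13.7 untreated and 3.33, 7.72, 2.74 and 9.99 treated. The treated WT arrays stood more than an order of magnitude above all other arrays, which overlapped each other. Mmp13 rose by 5.74 (SE 0.28) in WT cells, its change in CHOP-/- cells was -0.45 (adjusted p = 0.173), and the difference was -6.19 (SE 0.40, limma adjusted p = 1.02e-09). With pseudocounts of 1 and 64 in place of 16 the difference lay between -7.69 and -4.69. Mmp13 passed the filter on low signals by its treated WT arrays alone, which favours a lower response.

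Serpinb9g, a serpin of the granzyme inhibitor cluster, kept a large rise without CHOP. It gave 1.52, 9.55, 5.68 and 9.38 in untreated and 7002, 6932, 7491 and 6475 in treated WT cells. In CHOP-/- cells it gave 20.1, 11.3, 21.7 and 9.94 untreated and 845, 675, 785 and 591 treated. Treated arrays stood above untreated ones in both genotypes, and the treated WT arrays above the treated CHOP-/- arrays. It rose by 8.29 (SE 0.16) and by 4.55 (SE 0.16), a difference of -3.74 (SE 0.23). A list joined the Serpinb9 cluster, its placental neighbours and Gzmb, which lies on another chromosome. Of its 7 tested genes 5 had a lower and 0 a higher response (71.4% called, beside 28.2% of all genes). Their median was -1.95, beside -0.0015 over all genes. Of 18 entries only these 7 passed the filter on low signals, and Prl8a9 passed by its treated WT arrays alone. Such a gene can hardly show a higher response, so these values are partly set by the filter. Members and lists, here and below, were also chosen with earlier results of these data known. The shares called beside 28.2% are thus descriptions and no independent support. Serpinb9b rose by 2.73 and 1.12, and its difference was -1.61 (SE 0.15). Gzmb, which encodes granzyme B, rose from 22.8 ± 34.1 to 636 ± 86.4 in WT and from 22.9 ± 15.2 to 100 ± 27.1 in CHOP-/- cells, a difference of -2.74 (SE 0.57). Prl8a9, a placental prolactin, averaged 4.76 untreated and 174 treated in WT and 24.8 and 30.2 in CHOP-/- cells. Its difference of -3.03 (SE 0.61) became -4.59 and -1.71 with pseudocounts of 1 and 64.

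Krt16 was the keratin with the largest difference. Krt16, a keratin of activated epidermis, gave 43.9, 94.4, 104 and 64.1 in untreated and 2337, 2375, 2435 and 2458 in treated WT cells. In CHOP-/- cells it gave 8.02, 37.0, 67.4 and 30.6 untreated and 86.4, 93.7, 93.7 and 104 treated. The treated CHOP-/- arrays stood within the range of untreated WT cells and above their own untreated arrays. Krt16 rose by 4.76 (SE 0.27) and 1.22 (SE 0.27), a difference of -3.53 (SE 0.39, limma adjusted p = 1.27e-06). Of 14 tested keratin and barrier genes 7 had a lower response and 0 a higher one (50.0% called, beside 28.2% of all genes), with a median of -0.60. Krt14 passed the filter on low signals through its treated WT arrays, which favours a lower response, so these values are partly set by the filter. Krt14, the basal keratin, differed by -2.66 (SE 0.46, or -1.75 as a mean of probe sets), Krt19 by -0.52 (SE 0.081) and the desmosomal Pkp1 by -0.94 (SE 0.21). Of the 25 genes of this list, 8 were under 100 on all arrays, and the summed signal of the list was 8873 to 10010 in untreated WT, 13940 to 14700 in treated WT, 17570 to 18510 in untreated CHOP-/- and 12460 to 13030 in treated CHOP-/- cells. Sprr1a, a cornified envelope gene chosen after its values were seen, averaged 54.7 and 88.3 in WT and 11700 and 6696 in CHOP-/- cells and made up much of the sum in the latter. Cdsn, the corneodesmosin of skin, rose from 223 ± 50.4 to 1743 ± 157 in WT cells and fell from 197 ± 26.8 to 137 ± 45.9 in CHOP-/- cells, a difference of -3.41 (SE 0.25). Krtap1-5, a keratin-associated protein gene, and the keratin gene Krt25 differed by -3.37 (SE 0.39) and -2.93 (SE 0.53). Krt25 passed the filter by its treated WT arrays alone.

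**Figure D2:**
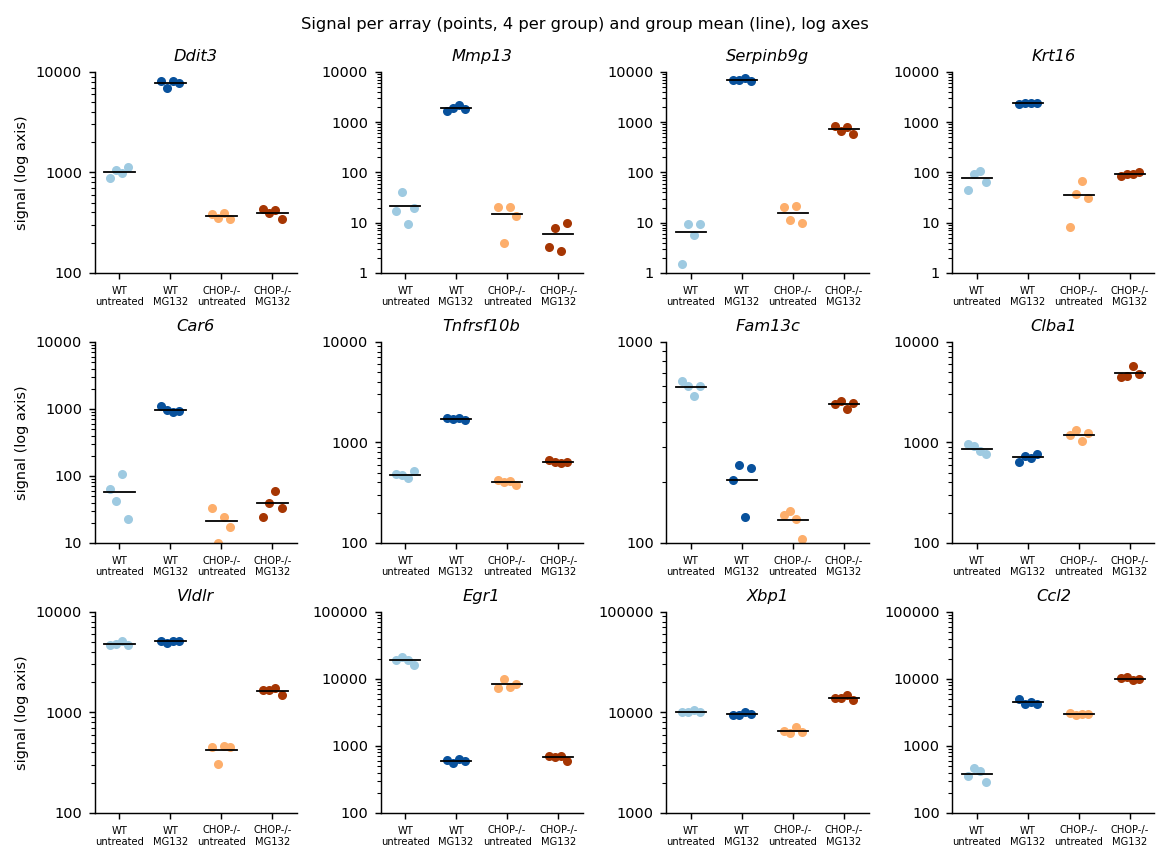
Signals of 12 genes on each of the 16 arrays (points, log axes) with the group mean (line), for WT untreated, WT MG132, CHOP-/- untreated and CHOP-/- MG132. Ddit3, Mmp13, Krt16 and Car6 are high in the treated WT group alone, Serpinb9g, Tnfrsf10b and Ccl2 rise in both genotypes, and Clba1 and Xbp1 are highest in treated CHOP-/- cells.

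The other lower values among the 15 largest came from genes of different kinds. Dynap, which encodes a membrane protein, rose from 33.7 ± 17.2 to 1443 ± 145 in WT and from 269 ± 17.1 to 387 ± 62.1 in CHOP-/- cells, a difference of -4.45 (SE 0.26). Prg4, the lubricin of joints, rose in both genotypes, from 27.8 to 464 and from 32.2 to 67.8, and differed by -2.74 (SE 0.46). Prg4 passed the filter on low signals by its treated WT arrays alone, which favours a lower response. Igf1, the insulin-like growth factor, had the opposite baseline. It gave 30.9, 24.8, 16.2 and 40.0 in untreated and 64.8, 29.0, 136 and 253 in treated WT cells, against 801, 752, 780 and 693 in untreated and 200, 254, 186 and 150 in treated CHOP-/- cells. The WT groups overlapped each other, and untreated CHOP-/- arrays stood above all others. Igf1 fell by 1.88 (SE 0.36) in CHOP-/- cells and rose by 1.36 (SE 0.36) in WT cells, and its 4 probe sets differed by -3.41 to -2.40. Ifi47, an interferon-induced GTPase, also fell in CHOP-/- cells, from 144 ± 28.8 to 20.4 ± 21.6, while it averaged 3.77 and 12.6 in WT cells. Its difference of -2.72 (SE 0.59) lay between -4.28 and -1.48 with other pseudocounts. Ifi47 passed the filter by its untreated CHOP-/- arrays alone, which also favours a lower response. Tnnt2, the cardiac troponin T, rose from 15.5 ± 9.24 to 230 ± 57.3 in WT cells and averaged 253 and 270 in CHOP-/- cells, a difference of -2.91 (SE 0.31), or -1.70 as the mean of its 3 probe sets.

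The higher end was led by Fam13c, a gene of little known function. It gave 636, 603, 535 and 601 in untreated and 205, 243, 134 and 236 in treated WT cells, and 138, 145, 131 and 105 in untreated and 489, 508, 464 and 496 in treated CHOP-/- cells. WT cells thus stood high without and low with MG132, and CHOP-/- cells the other way round, with no overlap between treated and untreated arrays of a genotype. It fell in WT cells and rose by 1.80 (SE 0.15) in CHOP-/- cells, a difference of 3.30 (SE 0.21, limma adjusted p = 9.51e-10). The mean of its 5 probe sets gave 1.88, with 3 probe sets between 2.81 and 3.30 and the 2 dimmest near 0, at -0.089 and 0.16.

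Clba1, a clathrin-binding protein gene, gave 974, 914, 818 and 764 in untreated and 640, 724, 700 and 774 in treated WT cells, and 1173, 1342, 1035 and 1236 in untreated and 4483, 4598, 5723 and 4777 in treated CHOP-/- cells. The treated CHOP-/- arrays stood above all others. It rose by 2.02 (SE 0.094) in CHOP-/- cells and fell by 0.28 (SE 0.094) in WT cells, a difference of 2.30 (SE 0.13). Vldlr gave 4695, 4736, 5092 and 4677 in untreated and 5168, 4921, 5087 and 5127 in treated WT cells, and 454, 310, 459 and 453 in untreated and 1669, 1666, 1757 and 1483 in treated CHOP-/- cells. It was high in WT cells with either treatment, low in untreated CHOP-/- cells, and rose there by 1.95 (SE 0.092) to a level still below WT. Its difference of 1.87 (SE 0.13) became 1.26 as the mean of 6 probe sets.

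Of the other genes among the 15 largest, Angptl7, Lrrtm3, Carns1, Rarres1, Etl4 and Gjb5 fell in WT cells and had lower means in both CHOP-/- groups than in untreated WT cells. Except for Carns1, these CHOP-/- means lay below the lowest array median of 90.1. A fall like that in WT cells could hardly be seen at such signals, so the higher response rests on the fall in WT cells. Angptl7, a secreted angiopoietin-like protein gene, fell from 3759 to 538 in WT cells and averaged 33.9 and 18.5 in CHOP-/- cells, a difference of 2.38 (SE 0.36). Lrrtm3, a synaptic adhesion gene, fell from 416 ± 40.9 to 92.6 ± 27.8 in WT cells and averaged 13.0 and 26.1 in CHOP-/- cells (difference 2.56, SE 0.35). Carns1, the carnosine synthase, fell from 859 to 176 and averaged 101 and 92.5 (difference 2.11, SE 0.40), and Rarres1, a retinoic acid responsive gene, fell from 879 to 361 and averaged 8.66 and 23.2 (difference 1.77, SE 0.40). Etl4 fell from 762 to 303 and rose from 19.9 to 33.0 (difference 1.79, SE 0.30), but the mean of its 6 probe sets gave 0.40, which was not called. Gjb5, a connexin gene, fell from 158 to 26.3 and averaged 7.20 and 6.90 (difference 2.18, SE 0.57), which became 1.32 with a pseudocount of 64 and was not called with 1. Gjb5 passed the filter on low signals by its untreated WT arrays alone, which favours a higher response.

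Bcl11b, Plcl2, Lmcd1 and Kdr rose in CHOP-/- cells on the probe set tested. Bcl11b, a zinc finger factor of T cell development, fell in WT cells from 154 to 72.9 and rose in CHOP-/- cells from 34.2 to 114 (difference 2.42, SE 0.54), or 1.47 as the mean of its probe sets and 1.55 with a pseudocount of 64. Its other probe sets did not share that rise, with untreated and treated CHOP-/- means of 50.7 and 62.9, 44.3 and 41.8, and 21.0 and 6.36. Plcl2, a phospholipase C-like gene, rose from 122 ± 29.1 to 337 ± 84.8 in CHOP-/- cells (difference 1.79, SE 0.54). Lmcd1, a LIM domain cofactor gene, rose from 91.3 ± 54.5 to 217 ± 44.5 (difference 1.77, SE 0.56, and 1.12 with a pseudocount of 64). Its call was lost without replicate 3 of untreated WT or replicate 4 of treated CHOP-/- cells. Kdr, a receptor of vascular endothelial growth factor, rose from 43.9 ± 34.9 to 181 ± 64.6 (difference 1.82, SE 0.60, adjusted p = 0.0267). That call was lost without replicate 3 of treated WT, of untreated CHOP-/- or of treated CHOP-/- cells, and the value was 1.13 with a pseudocount of 64. Cfap126, a cilium gene, fell in WT cells from 102 to 29.7 and averaged 54.2 and 73.1 in CHOP-/- cells (difference 1.78, SE 0.55, and 1.05 with a pseudocount of 64).

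C/EBP proteins are the partners of CHOP. Of 5 tested genes, which include the deleted gene Ddit3 itself, 1 had a higher and 3 a lower response (80.0% called, beside 28.2% of all genes). Cebpb, the main stress-induced partner, rose more in CHOP-/- cells, from 3178 ± 317 to 5960 ± 626, than in WT cells, from 7439 ± 513 to 9686 ± 728, a difference of 0.52 (SE 0.11) that was not called as the mean of its probe sets (0.35). Cebpd was not called in WT cells (1164 and 1093) and fell in CHOP-/- cells from 842 ± 147 to 417 ± 80.0, a difference of -0.92 (SE 0.21, and -0.65, not called, as a mean of probe sets). Cebpg, a partner of ATF4, rose in both and differed by -0.45 (SE 0.13, and -0.15, not called, as a mean of probe sets). Cebpa, chosen after its values were seen, did not pass, at -1.14 (SE 0.52, adjusted p = 0.110).

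For ATF4, which drives Ddit3, no difference was called. Atf4 rose from 11300 ± 924 to 16250 ± 745 in WT and from 16950 ± 881 to 25060 ± 1120 in CHOP-/- cells, and its difference was 0.037 (SE 0.080, adjusted p = 0.777), or -0.34 as the mean of its probe sets. Of 21 tested ATF and stress bZIP factors 5 had a higher and 2 a lower response (33.3% called, near the 28.2% of all genes), with a median of 0.05 that turned to -0.0094 under median centring. Xbp1, the factor of the IRE1 branch of the ER stress response, stood out among them. It gave 9976, 10054, 10614 and 10067 in untreated and 9386, 9458, 10128 and 9694 in treated WT cells, and 6454, 6236, 7110 and 6352 in untreated and 14000, 13874, 14831 and 13248 in treated CHOP-/- cells. The WT groups overlapped, and the CHOP-/- groups lay on either side of them. It rose by 1.10 (SE 0.048) in CHOP-/- cells, and the difference was 1.17 (SE 0.067, adjusted p = 2.4e-10). Atf3 rose from 468 ± 41.5 to 9921 ± 435 and from 588 ± 20.9 to 7330 ± 317, a difference of -0.76 (SE 0.086). Nfe2l2, which encodes NRF2, rose in CHOP-/- cells, from 3945 ± 130 to 4868 ± 116, with a difference of 0.32 (SE 0.062, and 0.49, not called, as a mean of probe sets). Jdp2 fell in WT and rose in CHOP-/- cells, a difference of 0.63 (SE 0.077) that was 0.034 and not called when its dim second probe set was averaged in.

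Genes described elsewhere as targets of CHOP were called in both directions. Of 19 tested, 2 had a higher and 6 a lower response (42.1%, beside 28.2% of all genes), with a median of -0.083. Car6, the secreted carbonic anhydrase, gave 62.9, 42.2, 106 and 22.4 in untreated and 1099, 976, 891 and 929 in treated WT cells, and 33.5, 10.0, 24.6 and 17.5 in untreated and 24.4, 39.9, 59.6 and 32.6 in treated CHOP-/- cells. Only the treated WT arrays stood high, and the CHOP-/- groups overlapped. The difference was -3.30 (SE 0.43). Tnfrsf10b, a receptor for the death ligand TRAIL, gave 486, 472, 440 and 517 in untreated and 1742, 1697, 1747 and 1663 in treated WT cells, and 421, 407, 413 and 380 in untreated and 672, 635, 618 and 638 in treated CHOP-/- cells. It rose in both genotypes without overlap, by 1.81 and 0.64 (SE 0.072 each), and the difference was -1.17 (SE 0.10), or -0.62 without probe sets that can cross-hybridise. Bcl2l11, which encodes the pro-apoptotic protein BIM, rose from 786 ± 178 to 2094 ± 195 in WT and from 1142 ± 111 to 1476 ± 252 in CHOP-/- cells, a difference of -1.06 (SE 0.19, or -0.70 as a mean of probe sets).

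No difference was called for Trib3, Ppp1r15a, Ero1a and Bbc3. Trib3, a pseudokinase induced through ATF4 and CHOP, gave 578, 664, 593 and 599 in untreated and 3059, 2944, 3032 and 3069 in treated WT cells, and 812, 714, 879 and 826 in untreated and 3805, 3519, 3966 and 3248 in treated CHOP-/- cells. It rose in both without overlap, and the difference was -0.14 (SE 0.10, adjusted p = 0.336). It was called under 2 of 26 alternatives, at -0.25 as the mean of probe sets and -0.36 without probe sets that can cross-hybridise. Ppp1r15a, which encodes the phosphatase subunit GADD34, rose by 2.14 and 2.27 (difference 0.14, SE 0.12, adjusted p = 0.421), and Ero1a, an oxidase of the ER, by 0.49 and 0.36 (difference -0.13, SE 0.067, adjusted p = 0.172). Bbc3, which encodes PUMA, rose in CHOP-/- cells by 0.52 and was not called in WT cells at 0.11 (difference 0.41, SE 0.19, adjusted p = 0.118). Chac1 and Atf5 had called differences in opposite directions. Chac1 gave 791, 1109, 1091 and 1096 in untreated and 13142, 12982, 12917 and 13584 in treated WT cells, and 2674, 2734, 2797 and 2843 in untreated and 18225, 19046, 18877 and 19655 in treated CHOP-/- cells. It was higher in CHOP-/- cells at either treatment and rose less there on the log2 scale, by 2.77 against 3.68 (difference -0.91, SE 0.11). Atf5, an ATF4-related factor, fell in WT cells, from 2516 ± 548 to 1364 ± 175, and averaged 703 and 740 in CHOP-/- cells (difference 0.93, SE 0.17).

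ISR effectors were called in both directions. Of 33 tested, 11 had a higher and 8 a lower response (57.6% called, beside 28.2% of all genes), with a median of 0.067. Genes that rose more in CHOP-/- cells included Ddit4, an inhibitor of mTORC1, from 2935 ± 51.4 to 10620 ± 270 against 1210 ± 142 to 2482 ± 120 in WT cells (difference 0.82, SE 0.092), and Cth, the cystathionine lyase, from 4565 ± 112 to 13960 ± 263 against 936 ± 59.5 to 1851 ± 86.9 (difference 0.64, SE 0.072). Herpud1 rose from 4166 ± 116 to 14790 ± 310 against 2619 ± 191 to 5801 ± 180 (difference 0.68, SE 0.069). Nupr1, a stress-induced chromatin protein gene, differed by 0.53 (SE 0.080). Fgf21, a stress hormone chosen after its values were seen, rose by 3.16 and 1.43, from 72.5 to 761 and from 22.5 to 88.4 (difference 1.73, SE 0.37). The lower members included Slc7a11, which rose from 132 ± 25.9 to 2037 ± 196 in WT and from a mean of 163 to 1130 ± 73.6 in CHOP-/- cells (difference -1.13, SE 0.17). Stc2, a secreted glycoprotein gene chosen after its values were seen, rose by 1.86 and 0.59 (difference -1.27, SE 0.17). Ddit4, Cth and Herpud1 also stood higher in untreated CHOP-/- cells than in untreated WT cells.

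Aminoacyl-tRNA synthetases are also raised by ATF4. Of 19 tested, 1 had a higher and 3 a lower response (21.1% called, beside 28.2% of all genes), with a median of 0.04 that turned to -0.02 under median centring. Farsb differed by 0.39 (SE 0.076), Wars by -0.27 (SE 0.065), Tars by -0.22 (SE 0.077) and Kars by -0.19 (SE 0.057). The calls of Farsb and Wars were lost without probe sets that can cross-hybridise, at 0.24 and -0.17, and that of Tars, with an adjusted p of 0.0417, under 13 of 26 alternatives.

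ER chaperones and ERAD components were called at about the share of all genes. Of 31 tested, 7 had a higher and 2 a lower response (29.0% called, beside 28.2% of all genes; 5 and 4 under median centring), with a median of 0.049 that turned to -0.011 under centring. Manf, a secreted ER stress protein gene, rose in CHOP-/- cells from 12260 ± 210 to 18020 ± 609 and was not called in WT cells at 13500 ± 667 and 13810 ± 296, a difference of 0.52 (SE 0.059). Creld2, an ER protein gene of the same kind, differed by 0.32 (SE 0.054). Pdia6, a disulfide isomerase gene, fell in WT cells by 0.35 and averaged 6368 and 6300 in CHOP-/- cells, a difference of 0.33 (SE 0.078) that was 0.13 and not called as a mean of probe sets.

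Heat shock genes were called at about the share of all genes. Of 31 tested heat shock and cytosolic chaperone genes 2 had a higher and 7 a lower response (29.0% called, beside 28.2% of all genes), with a median of -0.077. Hspb1, which encodes HSP27, gave 2762, 3087, 3231 and 3023 in untreated and 44028, 39868, 49463 and 42477 in treated WT cells, and 4641, 4332, 4813 and 4628 in untreated and 29547, 28532, 28544 and 29081 in treated CHOP-/- cells. It stood higher in CHOP-/- cells without and lower with MG132, with no overlap at either treatment, and the difference was -1.20 (SE 0.082). Dnaja4, an HSP40 co-chaperone, rose from 722 ± 89.8 to 6741 ± 200 and from 791 ± 42.7 to 3062 ± 194, a difference of -1.27 (SE 0.10). Hspb8 differed by -0.81 (SE 0.078) and Cryab by -0.50 (SE 0.078). Hspa1b, an inducible HSP70 gene chosen after its values were seen, rose more in CHOP-/- cells, by 2.08 against 1.56 (difference 0.52, SE 0.092).

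With the authors' scaling, few genes of the proteasome, the target of MG132, had a called difference. Of 35 tested, 0 had a higher and 4 a lower response (11.4% called, beside 28.2% of all genes), with a median of -0.045 and a range from -0.30 to 0.25. Under quantile normalisation 0 had a higher and 9 a lower response, beside 1743 and 1636 of all 11457 genes, so the low share depends on the scaling. Psmb2, a subunit of the catalytic core particle, rose by 0.84 and 0.54 (difference -0.30, SE 0.075). Psmd6, Psmb4 and Psmd8 differed by -0.25, -0.26 and -0.26. The calls of Psmd6 and Psmb4 were lost as means of probe sets, at -0.17 and -0.11, and that of Psmd8 under 7 of 26 alternatives. Of 21 ubiquitin, p97 and autophagy genes 3 had a higher and 3 a lower response (28.6% called, beside 28.2% of all genes), with a median of 0.024 that turned to -0.036 under median centring and to -0.006 with the mean of probe sets. Zfand5, which opens the proteasome to substrates, and Gabarapl1, an autophagosome protein gene, had higher values of 0.52 (SE 0.063) and 0.53 (SE 0.074), and that of Zfand5 was 0.26 without probe sets that can cross-hybridise. Zfand2a, a proteasome-associated stress gene, rose by 2.67 and 2.38 (difference -0.29, SE 0.054). Ubqln1, a shuttle to the proteasome, differed by -0.30, and its call was lost as a mean of probe sets (-0.028) and without those that can cross-hybridise (-0.12).

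NRF2 antioxidant genes were called in both directions. Of 17 tested, 3 had a higher and 3 a lower response (35.3% called, beside 28.2% of all genes), with a median of 0.054 that turned to -0.0053 under median centring. Hmox1, the heme oxygenase, reached the same level from a lower start, from 1817 ± 74.1 to 24180 ± 1160 in CHOP-/- and from 3374 ± 167 to 23590 ± 1370 in WT cells, a difference of 0.92 (SE 0.073). Txnrd1, a thioredoxin reductase gene, differed by 0.42 (SE 0.064), not called as a mean of probe sets. Nqo1, a quinone reductase gene, differed by -0.56 (SE 0.12).

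Genes of cell death were called in both directions. Of 27 tested genes of the BCL2 family and death receptors, 2 had a higher and 8 a lower response (37.0% called, beside 28.2% of all genes), with a median of -0.082. Tnfrsf22, a TRAIL receptor without a death domain, rose from 474 ± 60.9 to 4281 ± 205 in WT and from 435 ± 18.8 to 1350 ± 89.7 in CHOP-/- cells, a difference of -1.54 (SE 0.12). Tnfrsf23, its close relative, chosen after its values were seen, differed by -1.75 (SE 0.32), and the probes of such similar genes may not tell them apart. Pmaip1, which encodes NOXA and was also chosen after its values were seen, rose by 4.25 and 3.79 (difference -0.46, SE 0.10). Bnip3, a mitochondrial protein of the BCL2 family, fell less in CHOP-/- cells, by 0.24 against 1.14 (difference 0.90, SE 0.087). Of 22 p53 targets and GADD45 genes 4 had a higher and 5 a lower response (40.9% called, beside 28.2% of all genes), with a median of -0.12. Trp53inp1, a p53-inducible nuclear protein gene, rose from 401 ± 18.5 to 1824 ± 99.4 and from 428 ± 40.8 to 709 ± 60.5, a difference of -1.43 (SE 0.12). Eda2r, a receptor for ectodysplasin A2, was not called in WT cells at 69.0 and 78.9 and rose in CHOP-/- cells from 260 ± 8.39 to 692 ± 55.8, a difference of 1.22 (SE 0.24). Gadd45g rose more in CHOP-/- cells, with a difference of 0.43 (SE 0.081).

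Immediate early genes, which growth factors and stress switch on within minutes, had the largest positive median of the lists with at least 3 tested members. Of 22 tested, 13 had a higher and 4 a lower response (77.3% called, beside 28.2% of all genes), with a median of 0.71, and of 0.65 under median centring and 0.36 with the mean of probe sets. Egr1 gave 19224, 20958, 18913 and 16357 in untreated and 616, 557, 636 and 602 in treated WT cells, and 7377, 9834, 7466 and 8289 in untreated and 696, 692, 705 and 602 in treated CHOP-/- cells. The treated groups overlapped, and untreated WT arrays stood above untreated CHOP-/- arrays. It fell by 4.93 in WT cells and fell by 3.58 in CHOP-/- cells (SE 0.086 each), a difference of 1.35 (SE 0.12). Egr2 fell from 683 to 63.3 and from 130 to 67.8, a difference of 2.32 (SE 0.37), again with a lower start in CHOP-/- cells. Ier2 fell from 4898 ± 475 to 2037 ± 68.6 and from 4171 ± 125 to 3621 ± 78.8, a difference of 1.05 (SE 0.081), here with unlike levels after treatment.

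Ier5, which promotes HSF1 activity, rose in both genotypes, from 6863 ± 356 to 7733 ± 210 and from 4375 ± 154 to 9941 ± 394, a difference of 1.01 (SE 0.065). Fosl2, an AP-1 subunit, fell in WT cells and was not called in CHOP-/- cells (difference 0.87, SE 0.078, or 0.37 as a mean of probe sets). Jun, chosen after its values were seen, was not called in WT cells at 9491 and 9344 and rose in CHOP-/- cells from 5188 to 9101 (difference 0.83, SE 0.092). Fos, likewise chosen, fell in both and more in CHOP-/- cells, from 703 to 238 against 745 to 480 (difference -0.89, SE 0.16).

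**Figure D3:**
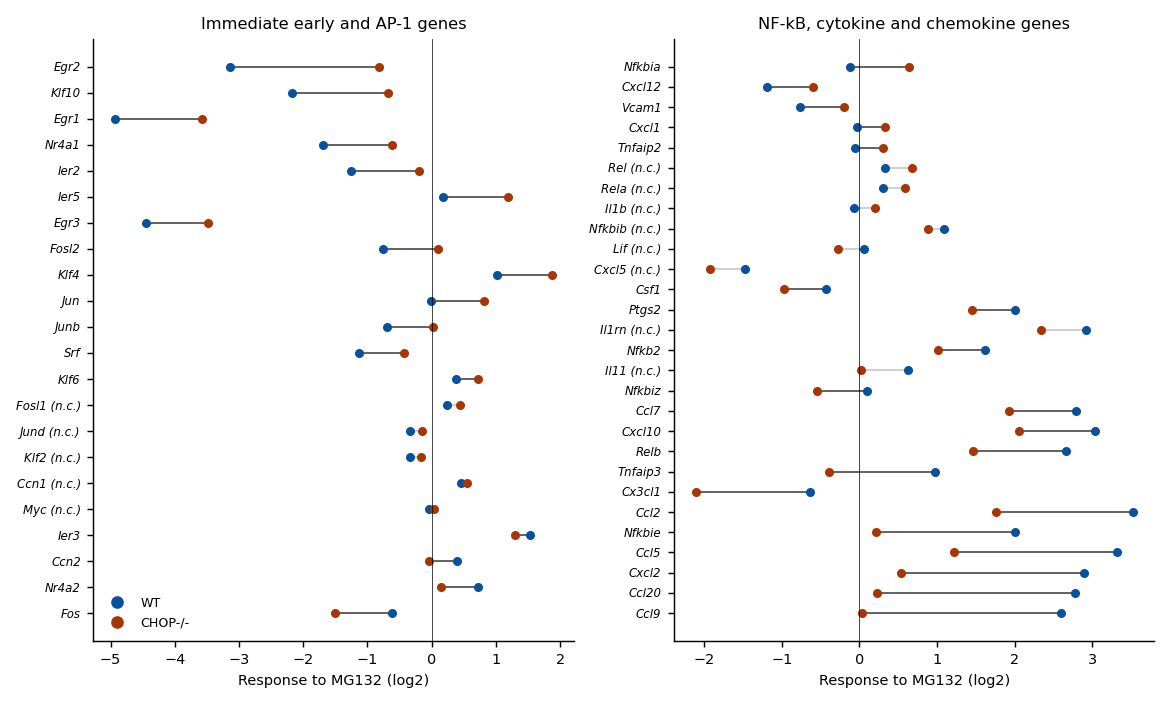
Log2 responses to MG132 of the 22 immediate early and AP-1 genes and the 28 NF-kB, cytokine and chemokine genes tested, in WT (blue) and CHOP-/- cells (brown), ordered by their difference, with n.c. for genes whose difference was not called. Egr2, Klf10, Egr1 and Nr4a1 fell further in WT cells, and Ccl9, Ccl20, Cxcl2 and Ccl5 have blue points far to the right of the brown ones.

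Genes that dampen ERK signalling were called in both directions. Of 18 tested, 5 had a higher and 4 a lower response (50.0% called, beside 28.2% of all genes), with a median of 0.082. Dusp6, the ERK phosphatase, gave 964, 897, 988 and 1078 in untreated and 775, 801, 667 and 755 in treated WT cells, and 1726, 1736, 1889 and 1903 in untreated and 355, 311, 337 and 304 in treated CHOP-/- cells. CHOP-/- cells stood highest without and lowest with MG132, with no overlap, and the difference was -2.04 (SE 0.11). Spry1, an inhibitor of receptor tyrosine kinase signalling, was not called in WT cells and fell in CHOP-/- cells from 491 ± 65.1 to 155 ± 26.6, a difference of -1.32 (SE 0.27). Ereg, an EGF receptor ligand, differed by -0.83 (SE 0.091). Errfi1, a brake on the EGF receptor, fell less in CHOP-/- cells and differed by 0.55 (SE 0.080).

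Among NF-kB targets, cytokines and chemokines, more genes were called lower than higher. Of 28 tested, 5 had a higher and 15 a lower response (71.4% called, beside 28.2% of all genes), with a median of -0.59. Dim members, such as Ccl9, Ccl20 and Cxcl2 below, may have passed the filter on low signals through their treated WT arrays. That favours a lower response, so these values may be partly set by the filter. Ccl2, the monocyte chemokine, gave 355, 470, 417 and 285 in untreated and 4933, 4275, 4453 and 4229 in treated WT cells, and 3042, 2876, 2958 and 3019 in untreated and 10281, 10639, 9549 and 9917 in treated CHOP-/- cells. It was higher in CHOP-/- cells at either treatment without overlap, while its rise was smaller, 1.76 against 3.52 (SE 0.098 each), a difference of -1.76 (SE 0.14). Tnfaip3, the deubiquitinase A20 that restrains NF-kB, gave 1980, 2057, 1932 and 1593 in untreated and 3510, 3774, 3898 and 3667 in treated WT cells, and 2264, 2199, 2197 and 2428 in untreated and 1915, 1829, 1672 and 1505 in treated CHOP-/- cells. It rose in WT and fell in CHOP-/- cells, without overlap between untreated and treated arrays of a genotype, a difference of -1.37 (SE 0.11).

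The inhibitor genes of the pathway moved apart. Nfkbie rose from 98.8 ± 31.3 to 431 ± 24.9 in WT cells and averaged 484 and 563 in CHOP-/- cells, a difference of -1.79 (SE 0.21), or -1.09 without probe sets that can cross-hybridise. Nfkbia fell slightly in WT cells, by 0.12, and rose in CHOP-/- cells by 0.63, a difference of 0.75 (SE 0.056). The chemokines Ccl9, Ccl20 and Cxcl2, chosen after their values were seen, rose in WT cells to 280, 158 and 283 and were not called in CHOP-/- cells, where they averaged at most 83.2 with MG132; they differed by -2.57, -2.55 and -2.36. Ccl5, likewise chosen, rose in both and differed by -2.09 (SE 0.43).

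Among 20 tested interferon and antigen processing genes 1 had a higher and 5 a lower response, with a median of -0.29 (30.0% called, beside 28.2% of all genes). The MHC class I genes H2-K1 and H2-D1 rose to similar levels from a higher start in CHOP-/- cells. H2-K1 went from 5308 ± 484 to 8470 ± 265 there and from 3394 ± 280 to 8217 ± 295 in WT cells (difference -0.60, SE 0.089, and -1.0 as the mean of probe sets). H2-D1 differed by -0.48 (SE 0.062), and by -0.28, not called, as a mean of probe sets, and probes may be shared between such similar genes. Tapbp, the tapasin of peptide loading, differed by -0.61 (SE 0.13). Ifit2, an interferon-induced gene, fell in WT cells from 3979 ± 406 to 2009 ± 30.5 and averaged 2242 and 2188 in CHOP-/- cells, a difference of 0.94 (SE 0.091).

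Among BMP and TGF-beta genes, more were called lower than higher. Of 18 tested, 1 had a higher and 9 a lower response (55.6% called, beside 28.2% of all genes), with a median of -0.28. Grem1, the secreted BMP antagonist gremlin, gave 1127, 1406, 1366 and 1303 in untreated and 5375, 5555, 4938 and 5163 in treated WT cells, and 458, 500, 457 and 418 in untreated and 521, 587, 558 and 586 in treated CHOP-/- cells. Treated arrays stood above untreated ones in both genotypes, and WT arrays above CHOP-/- arrays. The rise was 2.01 in WT and 0.29 in CHOP-/- cells (SE 0.076 each), a difference of -1.72 (SE 0.11). Inhba, the activin A subunit, rose in WT cells and was not called in CHOP-/- cells (difference -1.46, SE 0.13, or -0.87 as a mean of probe sets). Id1, a BMP-induced inhibitor of bHLH factors, fell in both, from 8723 ± 447 to 3426 ± 159 and from 4746 ± 342 to 863 ± 74.6, a difference of -1.09 (SE 0.091). Bmp4 fell from 9016 ± 335 to 5383 ± 302 and from 1414 ± 81.1 to 378 ± 57.5, a difference of -1.12 (SE 0.11).

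Among matrix genes, too, more were called lower than higher. Of 34 tested extracellular matrix genes and proteases 1 had a higher and 16 a lower response (50.0% called, beside 28.2% of all genes), with a median of -0.31. Mmp13, which passed the filter by its treated WT arrays alone, is among the lower genes. Adamts1, a secreted protease that cleaves aggrecan, rose in WT cells from 4114 ± 675 to 6046 ± 441 and fell in CHOP-/- cells from 3656 ± 350 to 2123 ± 95.6, a difference of -1.34 (SE 0.12). Adamts5, an aggrecanase, fell in both and differed by -1.34 (SE 0.12). Col3a1, type III collagen, fell from 3056 ± 166 to 1183 ± 107 and from 7140 ± 657 to 1547 ± 96.2, a difference of -0.83 (SE 0.10).

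Of 16 fibroblast identity genes 3 had a higher and 7 a lower response (62.5% called, beside 28.2% of all genes), with a median of -0.15. Fgf7, the keratinocyte growth factor that mesenchymal cells secrete, gave 4544, 4549, 4515 and 4958 in untreated and 3944, 4005, 4087 and 3900 in treated WT cells, and 5028, 4138, 4762 and 3933 in untreated and 1584, 1364, 1516 and 1429 in treated CHOP-/- cells. The untreated groups overlapped, and the treated CHOP-/- arrays stood below all others (difference -1.37, SE 0.096). Twist2, a mesenchymal transcription factor, rose in WT cells from 4502 to 7071 and averaged 4664 and 4489 in CHOP-/- cells (difference -0.70, SE 0.068). Gas1, a growth arrest gene, fell in both and differed by -1.37 (SE 0.19, or -0.55 as a mean of probe sets), and S100a4, a fibroblast calcium-binding protein gene, differed by -0.67 (SE 0.11).

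All called differences among contractile and mitotic genes were higher, while other members did not pass the test. Of 14 contractile and serum response genes 9 had a higher and 0 a lower response (64.3% called, beside 28.2% of all genes; 7 and 0 under median centring), with a median of 0.28. Tagln, the actin-binding protein SM22, gave 13938, 16452, 18036 and 16372 in untreated and 6565, 7384, 6093 and 6040 in treated WT cells, and 17406, 19080, 18082 and 18750 in untreated and 14542, 14700, 15716 and 15365 in treated CHOP-/- cells. The untreated groups overlapped and the treated groups did not, and the difference was 1.03 (SE 0.097). Cnn2, a calponin gene, differed by 0.91 (SE 0.081), Tgfb1i1, a focal adhesion gene, by 0.96 (SE 0.077) and Vcl, which encodes vinculin, by 0.46 (SE 0.056).

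Of 29 mitotic genes 13 had a higher and 0 a lower response (44.8% called, beside 28.2% of all genes; 10 and 0 under median centring), with a median of 0.21. Birc5, which encodes survivin, gave 14285, 14197, 15411 and 13509 in untreated and 8036, 7265, 7875 and 7747 in treated WT cells, and 13585, 12256, 13018 and 13110 in untreated and 10654, 10180, 10861 and 10382 in treated CHOP-/- cells. Untreated groups overlapped and treated CHOP-/- arrays stood above treated WT arrays, a difference of 0.59 (SE 0.067). Kif2c, a microtubule depolymerase gene, differed by 0.62 (SE 0.056, or 0.21, not called, as a mean of probe sets), Kif23, a cytokinesis kinesin gene, by 0.51 (SE 0.066) and Bub1b, a checkpoint kinase gene, by 0.55 (SE 0.076, or 0.39, not called, as a mean of probe sets). DNA replication genes were called in both directions. Of 34 tested, 4 had a higher and 4 a lower response (23.5% called, beside 28.2% of all genes), with a median of 0.031 that turned to -0.029 under median centring and to -0.043 with the mean of probe sets. Tk1, thymidine kinase, fell by 2.01 in WT and by 1.26 in CHOP-/- cells (difference 0.75, SE 0.072). The replication helicase subunit genes Gins1 and Gins3 differed by 0.57 (SE 0.069) and -0.51 (SE 0.11), and the licensing gene Cdc6 by 0.32 (SE 0.073).

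**Figure D4:**
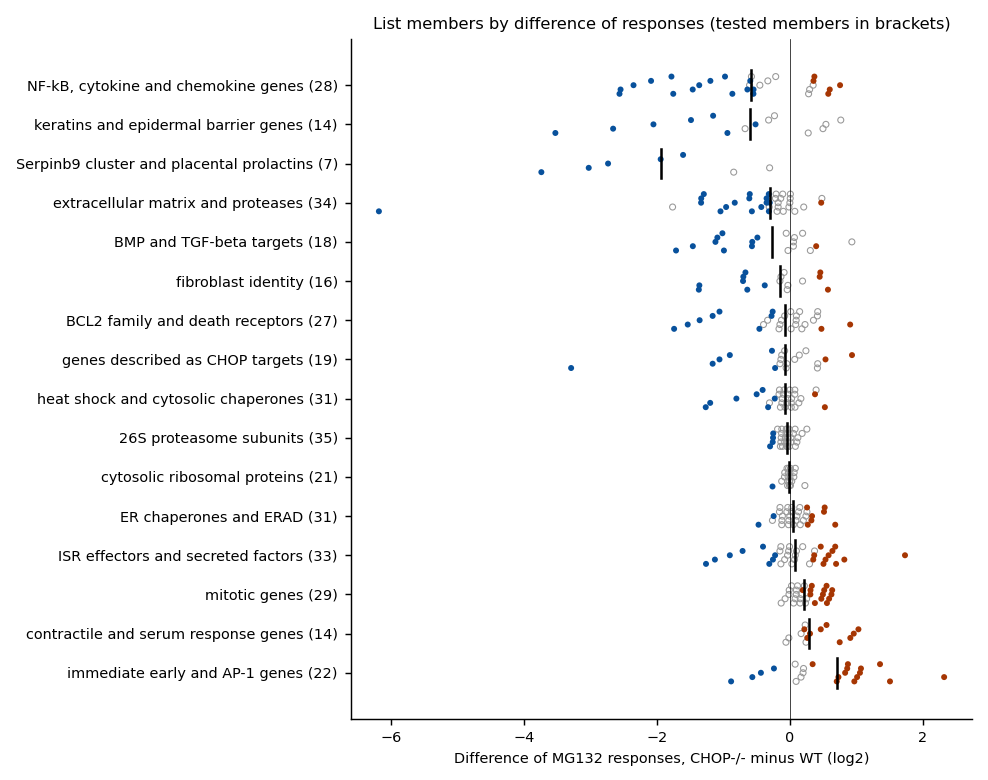
Difference of MG132 responses (CHOP-/- minus WT, log2) for the tested members of 16 gene lists, with called genes filled (brown higher, blue lower), others as open circles and the list median as a black bar. Medians run from -1.95 for the list of Serpinb9 genes, placental prolactins and Gzmb to 0.71 for the immediate early genes. Those of proteasome subunits (-0.045) and ribosomal proteins (-0.0096) lie near 0.

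With the authors' scaling, the lists of ribosomal, oxidative phosphorylation, cholesterol and Hox genes stood near or below the background of 28.2% called. Of 21 cytosolic ribosomal protein genes 0 had a higher and 1 a lower response (4.76%), with a median of -0.0096. The called gene, Rps6, differed by -0.27 and by 0.22 as a mean of probe sets. Of 32 oxidative phosphorylation genes 3 had a higher and 2 a lower response (15.6%), with a median of -0.032. Under quantile normalisation 4 had a higher and 8 a lower response, so this share depends on the scaling. Ndufa5 and Ndufv2 of complex I differed by -0.39 (SE 0.062) and -0.26 (SE 0.067) and Sdhd of complex II by 0.38 (SE 0.073). Cox7a2 of complex IV differed by 0.25 (SE 0.068), which was not called under median centring. Of 21 genes of cholesterol synthesis and uptake 3 had a higher and 4 a lower response (33.3%), with a median of -0.0083 that turned to 0.036 with the mean of probe sets. Insig1, a sensor of sterols, differed by 0.57 (SE 0.077), and the synthesis enzymes Hsd17b7 and Sc5d by -0.52 (SE 0.12) and -0.28 (SE 0.068). The call of Hsd17b7 was lost without probe sets that can cross-hybridise, at -0.22, and Sc5d differed by -0.48 as a mean of probe sets. Of 19 Hox genes 1 had a higher and 2 a lower response (15.8%), with Hoxb2 at -1.73 (SE 0.44, or -1.06 with a pseudocount of 64), Hoxa5 at -0.96 (SE 0.17) and Hoxa7 at 0.54 (SE 0.20). Hoxa7, with an adjusted p of 0.0482 in limma, was called under 12 of 26 alternatives, and not under median centring (0.48).

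Among markers of other cell types single genes were called, beside 28.2% of all genes. The lists held 2 to 7 tested members, so 1 gene moves their share far. Of 3 tested macrophage and leukocyte markers Cd14 was higher (0.98, SE 0.21; 33.3% called), and 6 of 12 list entries were under 100 on all arrays. Of 2 tested endothelial markers Kdr was higher (50.0% called), and 6 of 8 list entries were under 100 on all arrays. Among 5 skeletal muscle markers Acta1 was higher (1.20, SE 0.17) and Tnnt2 lower (40.0% called), and of 4 fat cell markers 0 were called. Of 2 cartilage and bone markers Sox9 was lower (-1.74, SE 0.38, or -1.06 as a mean of probe sets; 50.0% called). Of the neural markers below 42.9% were called. Among 7 neural markers Tubb3, a neuronal tubulin, was higher at 1.66 (SE 0.25), rising from 100 ± 38.5 to 1096 ± 106 in CHOP-/- and from 212 ± 42.6 to 690 ± 44.6 in WT cells. Stmn2, another neuronal tubulin regulator, was higher at 0.92 (SE 0.25, or 0.41, not called, as a mean of probe sets) and fell in WT cells from 4808 ± 243 to 2650 ± 83.6, while it averaged 52.4 and 55.1 in CHOP-/- cells, and the stem cell factor Sox2 was lower at -0.46 (SE 0.12). At its low CHOP-/- signals Stmn2 could hardly show a fall there. The summed signal of the neural list was 8213 to 11580 over the WT arrays and 2923 to 3611 over the CHOP-/- arrays. Fewer cells of a type and less RNA per cell cannot be told apart in such bulk samples, and the part of other cell types in the results was not tested.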

How the data were processed

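RNA of 16 cultures was labelled with a 3' IVT Express kit and hybridised to 1-colour mouse arrays, per the labels' protocols. The deposited intensity values are signals of the MAS5 algorithm, per the submitters' processing notes, and are scaled to a trimmed mean of 1000 on each array, as the values show. Of 45101 probe sets, 34945 name 1 gene. A gene was tested where its probe set lay above the array median on at least 4 arrays. Genes bright in 1 group alone, such as Mmp13 in treated WT cells, could pass through that group, which favours 1 direction. Values of log2(signal + 16) entered a linear model in limma 3.58.1 (R 4.3.3) (1 coefficient per group, eBayes with a mean-variance trend), with BH adjustment over 11457 genes at 0.05. The fit was tested on simulated data. The number of arrays limits the precision.

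Named were the 15 largest called differences in each direction, up to 4 called genes per list with the smallest adjusted p, and a fixed set of genes tied to CHOP. Members and lists were chosen with earlier results of these data known. The 26 alternatives were 10 settings and leaving out each array.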

Additional observations from a re-analysis of the deposited data

Results flagged for a closer look

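The response to MG132 differed between the genotypes for 3235 genes by the interaction term in limma, as described above, with 1620 higher and 1615 lower in CHOP-/- cells.

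A single array stood apart from the other 3 of its group in 33 of 556 groups of named genes, by the gap to the nearest array as a share of the group's range (Dixon's critical value at 95%). Chance alone gives about 1 in 20 groups. Replicate 3 of untreated WT cells was the array in 5 of these, and replicate 2 of treated WT and of untreated CHOP-/- cells in 4 each.

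In untreated WT cells, the array that stood above the others gave the signal for Vldlr in replicate 3 (5092), Gzmb in replicate 3 (73.88), Xbp1 in replicate 3 (10614), Hmox1 in replicate 4 (3624), Kif23 in replicate 1 (4637) and Fgf7 in replicate 4 (4958). In untreated WT cells, the array that stood below the others gave the signal for Chac1 in replicate 1 (791.1), Ereg in replicate 3 (4707), Gins1 in replicate 4 (3185) and Hoxa7 in replicate 3 (256.6). In MG132-treated WT cells, the array that stood above the others gave the signal for Cebpg in replicate 2 (3336), Gabarapl1 in replicate 1 (10256), Eda2r in replicate 2 (115.3), Tapbp in replicate 4 (4903), Cdc6 in replicate 3 (4336) and Sox9 in replicate 3 (543.9). In MG132-treated WT cells, the array that stood below the others gave the signal for Kdr in replicate 3 (16.43), Ddit4 in replicate 2 (2305) and S100a4 in replicate 2 (18170). In untreated CHOP-/- cells, the array that stood above the others gave the signal for Farsb in replicate 3 (9061), Txnrd1 in replicate 2 (15796), Insig1 in replicate 1 (1636), Vcl in replicate 2 (21937) and Krt14 in replicate 2 (25.34). In untreated CHOP-/- cells, the array that stood below the others gave the signal for Vldlr in replicate 2 (309.7) and Sox2 in replicate 1 (170.9). In MG132-treated CHOP-/- cells, the array that stood above the others gave the signal for Ifi47 in replicate 3 (52.79), Nfe2l2 in replicate 4 (5041), Adamts5 in replicate 2 (638.2) and Acta1 in replicate 3 (575.3). In MG132-treated CHOP-/- cells, the array that stood below the others gave the signal for Egr1 in replicate 4 (601.7), Vcl in replicate 1 (20078) and Sdhd in replicate 2 (6060).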

How the results depend on the processing

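Of 134 named genes with a called difference, 107 kept the call under all 26 alternatives. The count of higher responses lay between 1465 and 1639 when 1 array was left out, and that of lower responses between 1483 and 1675. For differences of at least 2-fold the counts without 1 array were 113 to 132 higher and 245 to 269 lower. The count of higher responses by at least 2-fold, 119, was 79 with the mean of all probe sets of a gene. That setting gave 1100 higher and 1495 lower calls, so 42.4% of calls were higher, and median centring gave 38.3%. Differences changed sign for Atf4 under median centring (-0.023), quantile normalisation (-0.024) and the mean of probe sets (-0.34), for Rps6 with the mean of probe sets (0.22) and for Xist without probe sets ending in _s_at or _x_at (0.25); the cause was not tested. A fit with the replicate block gave 1755 higher and 1729 lower calls. Arrays of the same number deviated together at -0.067 to 0.16, over 0.1 in 5 of 24 pairs, and 13 of 16 arrays correlated best with their own number, which is a hint from the data and not the design. Dim genes are limited by their signal over background. The differences of many shrink with a larger pseudocount, as for Mmp13. That of Angptl7, dim in CHOP-/- cells alone, was 2.30, 2.38 and 2.46 with pseudocounts of 1, 16 and 64. Its CHOP-/- means of 33.9 and 18.5 left little room for a fall, a limit that the pseudocount does not show.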

Other observations

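Probe sets that name no gene or several genes were fitted apart. Of 3110 that passed the same filter, 138 had a higher and 255 a lower response in CHOP-/- cells by the same limma test, adjusted within this set. This is a smaller share than the 1620 higher and 1615 lower of 11457 genes (28.2% called). The sets are not alike, so the shares are not a direct comparison. Genes entered by their brightest probe set alone, these probe sets without such a choice, and the adjustment ran over sets of different size.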
